A study of Mus musculus with 14 samples.

Results

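The metalloproteases described here are the Mmp, Adam and Adamts genes, together with the Timp genes that encode their inhibitors. They were taken by gene name from the tables of the spleen and ovary comparisons. A gene entered when its name was Mmp, Adam or Timp followed by digits, or began with Adamts, and Mmp8, Mmp9 and Mmp25 were left out. This gave 58 of the 20139 genes in those tables, made up of 15 Mmp, 15 Adam, 24 Adamts or Adamts-like and 4 Timp genes. Of the 58, 50 were in the spleen table, 54 in the ovary table and 46 in both. The rule itself reads no measured value, but it was set with earlier results of these data known. The counts below therefore do not cover Mmp8, Mmp9 and Mmp25.

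The libraries were poly(A) RNA-seq of whole organs, with 4 wild-type (WT) and 4 Zfp36l2 knockout spleens and 3 WT and 3 knockout ovaries. ZFP36L2 is an RNA-binding protein that binds AU-rich elements in 3′UTRs and promotes decay of the mRNAs that carry them. The knockout animals are named L2-cKO in the labels and L2-fKO in the study. In L2-cKO animals exon 2 of Zfp36l2, flanked by loxP sites, was deleted on both alleles with a CMV-Cre transgene, which is active in all tissues. The WT animals were littermates with both intact copies of Zfp36l2 that also carried CMV-Cre, so every animal had the transgene. The spleen groups held 2 female and 2 male WT and 1 female and 3 male L2-cKO animals, and all ovary donors were female. The labels give no age, and the study describes age-matched neonatal pups. L2-cKO spleen 3 and L2-cKO ovary 1 came from 1 animal, and each other library came from an animal of its own.

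Mmps are secreted or membrane-bound zinc proteases that cut collagens, fibronectin, proteoglycans and other matrix proteins. Adams are membrane proteins, some of which shed the extracellular part of other membrane proteins, while others lack a working protease site and act in adhesion. Adamts proteases are secreted and process procollagens, cut proteoglycans or cut von Willebrand factor, and Adamts-like proteins share their non-catalytic domains but have no protease. Timps are small secreted proteins that bind and block these enzymes. In the spleen the matrix is made mainly by reticular fibroblasts, and in the ovary it is remodelled as follicles grow.

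Zfp36l2 itself had a mean normalised read count of 5739 ± 1419 (SD, n = 4) in WT spleen and 339 ± 52.9 in L2-cKO spleen, and of 4840 ± 83.9 (n = 3) in WT ovary and 926 ± 145 in L2-cKO ovary. The groups did not overlap in either organ. The spleen libraries held 39138010 to 45167464 counts on genes and the ovary libraries 31052510 to 44270070. All 8 spleen libraries matched the sex in their labels. RNA of pancreatic acinar cells stood out in 3 WT spleens. The summed normalised counts of 6 acinar genes were 18178, 4687, 41.7 and 16236 in WT spleens 1 to 4, and 24.4 to 76.0 in the L2-cKO spleens. L2-cKO spleen 4 had the highest summed counts of macrophage, endothelial and stromal markers of the 8 libraries.

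The members differed widely in level. Levels between genes were compared as reads per kilobase of exon, scaled to the same total in each library, and are called levels per length here. In WT spleen the highest was Adam10, the main sheddase of Notch receptors, at 207 ± 37.8 (SD, n = 4), followed by the inhibitor Timp2 at 96.5 ± 9.41. The gelatinase Mmp2 stood at 49.2 ± 8.26 and the membrane-type Mmp14, which activates it, at 46.1 ± 2.52. These last levels differed by less than their spread. Adam17, which sheds tumour necrosis factor, was at 20.8 ± 3.91, and Mmp23 at 16.6 ± 1.35.

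In WT ovary, on the same scale, Mmp2 had the highest level, 527 ± 40.8 (SD, n = 3). Mmp14 at 235 ± 14.7, Timp2 at 231 ± 20.4 and Adam10 at 225 ± 12.3 did not differ beyond their spread. The procollagen N-proteinase Adamts2 at 139 ± 3.06 and the stromelysin Mmp11 at 134 ± 18.9 followed and also did not differ beyond their spread. Spleen and ovary values were normalised separately, so the order within an organ is given and not a test between organs. The other classes were led in the spleen by Mmp11 at 4.02, the non-proteolytic Adam22 at 1.32, Adamts2 at 9.67, the Adamts-like gene Adamtsl4 at 4.20 and the collagenase Mmp13 at 0.394. In the ovary they were led by Mmp23 at 104, Adam23 at 3.90 and Adamtsl2 at 13.9. Adam23 at 3.90 ± 0.42 and Adam11 at 3.50 ± 0.43 in WT ovary did not differ beyond their spread. Neither did Adam22 at 1.32 ± 0.17 and Adam23 at 0.92 ± 0.56 in WT spleen.

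**Figure D1:**
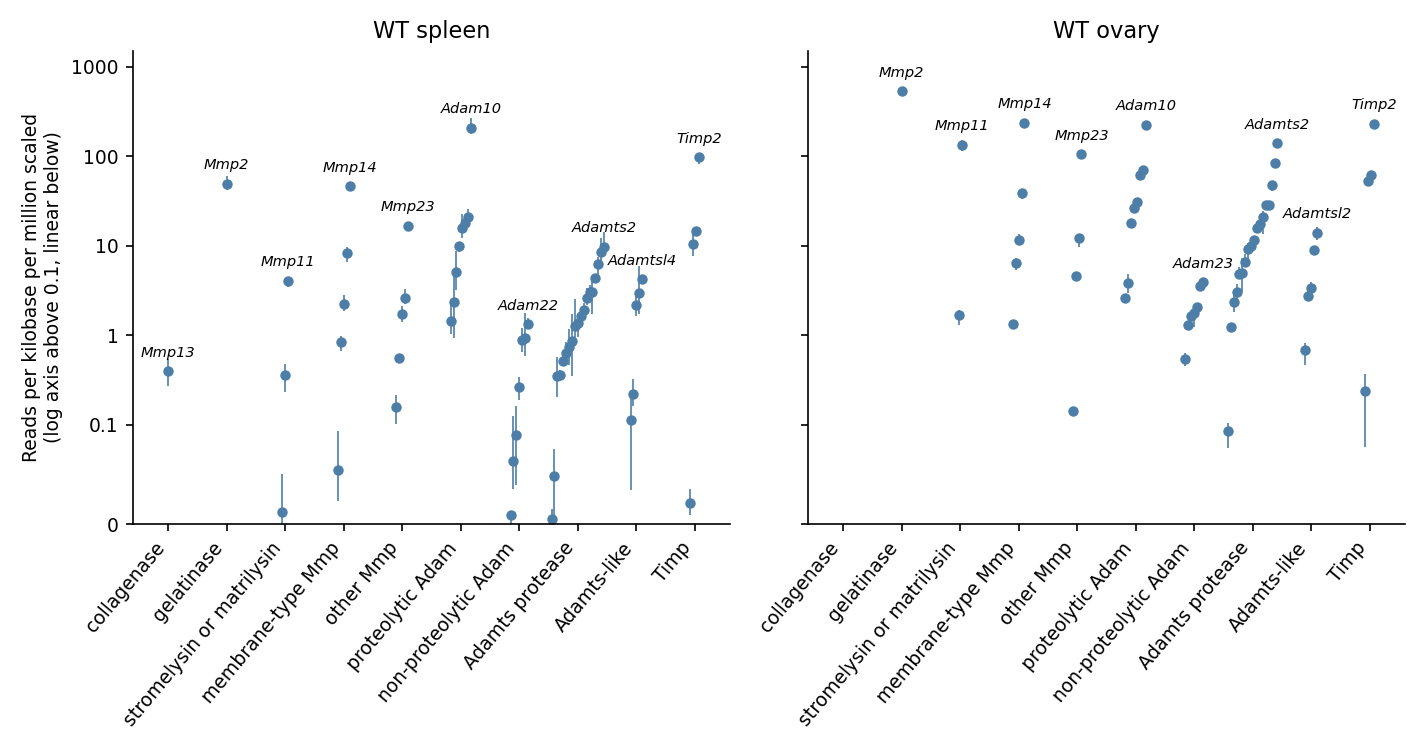
Level per length of each member in WT spleen (left) and WT ovary (right), by role. Points are means over 4 spleens or 3 ovaries, lines run from the lowest to the highest library, and the highest member of each role is named. Adam10 leads in the spleen at 207 and Mmp2 in the ovary at 527.

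In L2-cKO spleen, 11 of the 50 members tested rose and 1 fell at an adjusted p below 0.05 with an absolute log2 fold change above 1 (edgeR quasi-likelihood test). That is 22.0% and 2.0% of the members, beside 2.9% and 3.11% (6.01% in either direction) of all 16911 genes tested. The increases were in the stromelysin Mmp3, the collagenase Mmp13, Mmp27, Adam12, Adamts2, Adamts4, Adamts9, Adamts12, Adamtsl1, Adamtsl5 and the inhibitor Timp1. The decrease was in Adam33, and that call was lost without any of 5 single libraries. With no limit on the fold change, 16 members rose and 1 fell, 34.0% of the members beside 13.4% of all genes (6.89% higher and 6.51% lower).

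In GRCm38 the members that rose outside chromosome 9 are Adam12 (ENSMUSG00000054555, chr7:133883199-134232146), Adamts2 (ENSMUSG00000036545, chr11:50602084-50807573), Adamts4 (ENSMUSG00000006403, chr1:171250421-171260637), Adamts9 (ENSMUSG00000030022, chr6:92772699-92943492), Adamts12 (ENSMUSG00000047497, chr15:11064790-11349231), Adamtsl1 (ENSMUSG00000066113, chr4:85514172-86428385), Adamtsl5 (ENSMUSG00000043822, chr10:80339110-80348412) and Timp1 (ENSMUSG00000001131, chrX:20870166-20874735). Adam33 (ENSMUSG00000027318) lies at chr2:131050591-131063814.

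The median log2 fold change was 0.26 over the 50 members and -0.02 over all genes tested, and 42 members had a value above 0. The WT and L2-cKO libraries did not overlap for 21 members (42.0%), beside 20.4% of all genes. Every L2-cKO spleen was higher in 19 of them and lower in 2, Adam33 and Adam5, beside 9.61% and 10.8% of all genes. Adam5 reached the minimum in WT libraries only, so the filter itself favoured a difference in that gene. Of the 50, 46 had at least 10 counts in all 8 libraries. Mmp3, Adam5, Adamtsl3 and Mmp12 passed the filter of 10 counts in at least 4 libraries without that. The other 8 members did not pass it.

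**Figure D2:**
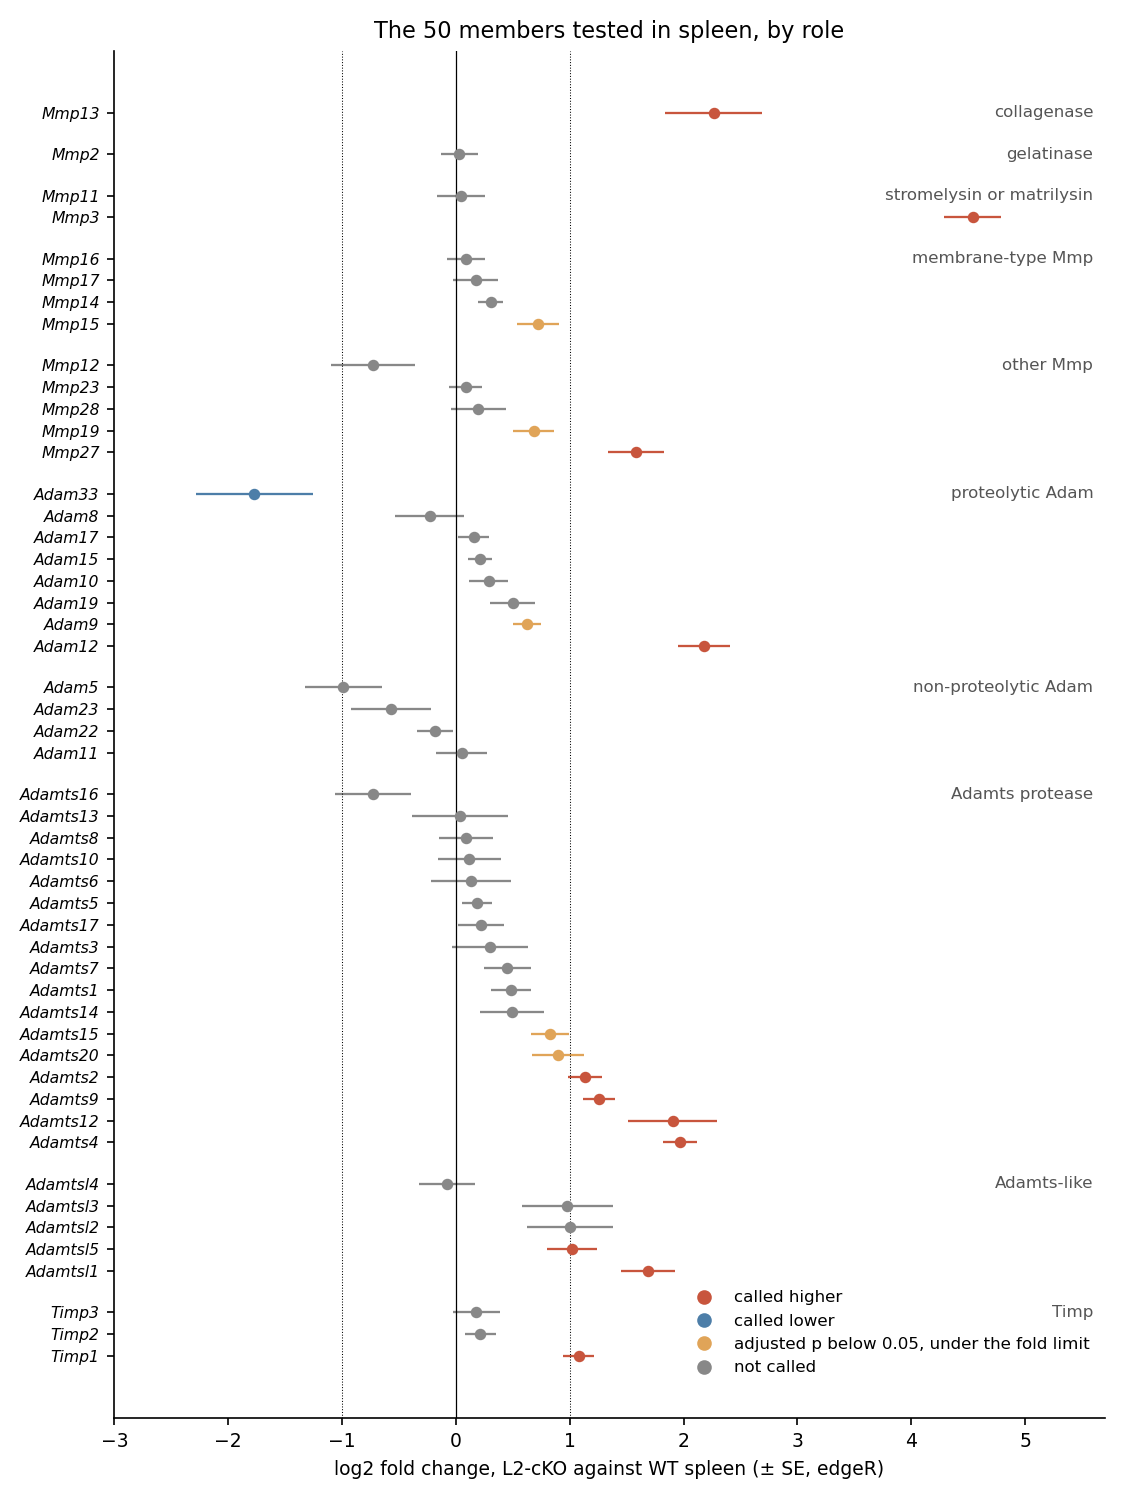
Log2 fold change of each of the 50 members tested in spleen, L2-cKO against WT, with its SE, grouped by role. Dotted lines mark the limit of 1 on the log2 scale. Red points are the 11 members called higher, the blue point is Adam33, and yellow points are the 5 members with an adjusted p below 0.05 that missed the fold limit.

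Among the stromelysins and matrilysins, Mmp3 had the largest change of any member. Stromelysin-1, its product, cuts proteoglycans, fibronectin and several collagens and activates other pro-Mmps. Its normalised read counts were 11.3, 16.2, 10.9 and 8.09 in WT spleens 1 to 4 and 320.5, 222, 273 and 277 in L2-cKO spleens 1 to 4. Every L2-cKO spleen was far above every WT spleen. The rise was 23.3-fold (log2 fold change 4.54 ± 0.25 SE, adjusted p = 1.1e-05). The WT values rest on 47 counts in all, against 1083 in L2-cKO spleen. Mmp11, the other member of this class that was tested, had a log2 fold change of 0.05 ± 0.21 (adjusted p = 0.907).

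The collagenase Mmp13, which opens the triple helix of fibrillar collagens, had counts of 25.5, 23.2, 12.9 and 14.1 in WT spleens and 58.5, 78.6, 55.4 and 172 in L2-cKO spleens. The groups did not overlap, and L2-cKO spleen 4 was well above the others of its group. The rise was 4.80-fold (log2 fold change 2.26 ± 0.43, adjusted p = 0.0086), and without L2-cKO spleen 4 or any other single library the log2 fold change stayed between 1.75 and 2.44 with the call kept. Mmp27, a little-studied member of the same gene cluster, had 21.7, 21.2, 20.9 and 24.3 in WT and 67.9, 65.4, 86.9 and 45.2 in L2-cKO spleens. All WT values lay close together and below all L2-cKO values, and the gene rose (log2 fold change 1.58 ± 0.25, adjusted p = 0.00343).

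These 3 genes lie in 1 gene cluster. In GRCm38, 5 members lie within 427072 bases of chromosome 9, all on the plus strand, with no gap above 500000 bases between neighbours. They are Mmp13 (chr9:7272514-7283331), Mmp12 (chr9:7344381-7369499), Mmp3 (chr9:7445822-7455975), Mmp27 (chr9:7571396-7581885) and Mmp7 (chr9:7692090-7699585). Mmp12, the macrophage elastase, did not rise with its neighbours. Its counts were 27.3, 19.2, 19.9 and 14.1 in WT and 10.4, 5.54, 14.1 and 17.9 in L2-cKO spleens, which overlap (log2 fold change -0.73, adjusted p = 0.226). Mmp7, or matrilysin, had 1 count over the 8 spleens.

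Mmp promoters of this kind are known to carry the AP-1 element, so the letters TGANTCA, which read the same on both strands, were searched in the RefSeq promoter windows of GRCm38. Each window runs from 250 bases before to 50 after the transcription start, and 36 of the 58 members have one. The letters were present in 5 of the 36 (13.9%), beside 7.81% of all windows and 8.97% of all genes with a window, and in 2 of the 8 (25.0%) members with a window that rose in the spleen. The 5 were Mmp3, Mmp12, Mmp13 and Mmp7, all neighbours in the chromosome 9 cluster, and Adam19. Most of the share over the members thus comes from that cluster. The matches of Mmp3 (chr9:7445767-7445791), Mmp13 (chr9:7272470-7272494) and their neighbour Mmp12 (chr9:7347321-7347345), all on the plus strand, are shown to set the genes that rose beside the neighbour that did not, with the motif in capitals.
Mmp3: aagcaattaTGAGTCAgttttcggg
Mmp13: ccaaagtggTGACTCAtcactatca
Mmp12: catcaacagTGAGTCAgatagagga
The start used is that of the RefSeq window, which for Mmp12 is not the first base of the annotated gene. The match began 46 bases before the start in Mmp3, 35 in Mmp13 and 44 in Mmp12. The element was thus present both in genes that rose and in Mmp12, and a match of letters is no evidence of binding.

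The gelatinase Mmp2 and the membrane-type Mmp14, the Mmps with the highest levels per length, did not pass the test. Mmp2 had counts of 2444 to 3863 in WT and 2561 to 3623 in L2-cKO spleens, which overlap (log2 fold change 0.03 ± 0.16, adjusted p = 0.925). Mmp14 had 4395 to 5568 in WT and 5769.5 to 6739 in L2-cKO spleens. Its groups did not overlap, but the log2 fold change was 0.31 ± 0.11 with an adjusted p of 0.0896.

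Below the fold limit, the membrane-type Mmp15 had 618, 853, 839.8 and 884 in WT and 1202, 1212, 1043 and 1811 in L2-cKO spleens (log2 fold change 0.72 ± 0.19, adjusted p = 0.0326). Mmp19, which cuts basement membrane proteins, had 131, 93.9, 111 and 97.0 in WT and 167, 151, 176 and 202 in L2-cKO spleens (0.68 ± 0.18, adjusted p = 0.0347). Both genes were higher in every L2-cKO spleen than in any WT spleen. Mmp23, the highest of the remaining Mmps by level per length, had a log2 fold change of 0.08 ± 0.14 (adjusted p = 0.729). Of the 13 Mmp members tested, which leave out Mmp8, Mmp9 and Mmp25, 3 rose past both limits and none fell.

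Among the proteolytic Adams, Adam12, a protease of mesenchymal cells that is active in developing muscle and bone, had the largest rise. Its counts were 215, 219, 413 and 209 in WT and 1212, 1166, 1078 and 1341 in L2-cKO spleens. WT spleen 3 was well above the other WT spleens, and all 4 L2-cKO spleens were higher still. The rise was 4.54-fold (log2 fold change 2.18 ± 0.23, adjusted p = 0.000401). Adam9, a widely expressed sheddase, had 1367, 1232, 1384 and 1189 in WT and 1906, 1932, 1719 and 2416 in L2-cKO spleens, with no overlap and a log2 fold change of 0.62 ± 0.12 (adjusted p = 0.0111), under the fold limit.

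Adam33 had 509, 95.0, 141 and 147 in WT and 43.8, 62.0, 59.7 and 94.6 in L2-cKO spleens. WT spleen 1 was well above every other library, and the lowest WT and the highest L2-cKO values were nearly equal. The log2 fold change was -1.77 ± 0.51 (adjusted p = 0.049). Without WT spleen 1 it was -0.96 (adjusted p = 0.0658) and the call was lost, as it was without WT spleen 4 (adjusted p = 0.0727) or L2-cKO spleen 1 (0.132), 2 (0.115) or 3 (0.0973). WT spleen 1 also had the highest acinar count of the 8 libraries, and its part in this value was not tested. Adam10, with the highest level per length of all members, had a log2 fold change of 0.29 ± 0.17 (adjusted p = 0.296), and Adam17 had 0.16 ± 0.14 (adjusted p = 0.494).

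Of the 4 non-proteolytic Adams tested in the spleen, none was called. Their log2 fold changes ran from -0.99 in Adam5 to 0.05 in Adam11, with a median of -0.37. Adam22, a receptor of secreted neuronal proteins, had -0.18 (adjusted p = 0.485), and Adam23 had -0.57 (adjusted p = 0.322).

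Of the 17 Adamts proteases tested, 4 rose past both limits and 2 more passed the adjusted p alone, and none fell. The aggrecanase Adamts4, which cuts the proteoglycans aggrecan and versican, had 125, 138, 142 and 155 in WT and 619, 486, 594 and 498 in L2-cKO spleens. Both groups were tight and far apart, a 3.92-fold rise (log2 fold change 1.97 ± 0.15, adjusted p = 5.2e-05). Adamts12, which cuts cartilage oligomeric matrix protein, had 159, 71.7, 296 and 125 in WT and 487, 549, 504 and 902 in L2-cKO spleens. Its WT values spread widely but stayed below the L2-cKO values, a 3.74-fold rise (1.90 ± 0.39, adjusted p = 0.0125).

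Adamts9, which is secreted and cuts versican, had 512, 493, 543 and 485 in WT and 1052, 1080.0, 1169.9 and 1552 in L2-cKO spleens. Again no libraries overlapped, and the rise was 2.39-fold (log2 fold change 1.26 ± 0.14, adjusted p = 0.000575). Adamts2, which removes the N-propeptide of procollagens, had 1292, 1565, 2089 and 1441 in WT and 3369, 3526, 3286 and 3813 in L2-cKO spleens. It had the highest mean level per length of the Adamts proteases in WT spleen, 9.67 ± 2.94, beside 8.38 ± 3.28 in Adamts10, which is within the spread, and it rose 2.19-fold with no overlap (1.13 ± 0.15, adjusted p = 0.00136).

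Under the fold limit, Adamts15, another versican-cutting protease, had 85.8, 92.9, 105 and 99.0 in WT and 150.3, 169, 165 and 194 in L2-cKO spleens (log2 fold change 0.83 ± 0.16, adjusted p = 0.0109). Adamts20, known from mouse coat-colour mutants, had 64.1, 57.6, 51.7 and 56.6 in WT and 103, 76.4, 147 and 102 in L2-cKO spleens (0.90 ± 0.23, adjusted p = 0.0302). Neither gene overlapped between the groups. Without L2-cKO spleen 2, Adamts20 passed the fold limit with 1.03. Over the 17 proteases the median log2 fold change was 0.45, and 16 had a value above 0.

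Of the 5 Adamts-like genes, 2 rose. Adamtsl1, also called punctin, had 35.8, 49.5, 65.6 and 50.5 in WT and 162, 148, 206 and 134 in L2-cKO spleens, a 3.22-fold rise with no overlap (log2 fold change 1.69 ± 0.23, adjusted p = 0.0018). Adamtsl5 had 193, 174, 205 and 149 in WT and 419.6, 337, 466 and 239.6 in L2-cKO spleens, a 2.03-fold rise (1.02 ± 0.22, adjusted p = 0.0152). The Adamtsl5 groups did not overlap, but its fold change lay at the limit.

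The Adamtsl5 call was lost without WT spleen 4 (log2 fold change 0.94) or L2-cKO spleen 1 (0.95) or 3 (0.88). Adamtsl2, which binds fibrillin and latent TGF-beta binding protein, had 825, 262, 283 and 304 in WT and 792, 562, 959 and 1043 in L2-cKO spleens, and WT spleen 1 lay among the L2-cKO values. Its log2 fold change was 1.00 ± 0.37 with an adjusted p of 0.107, and 1.57 with an adjusted p of 0.00291 without WT spleen 1. Adamtsl4 had -0.08 ± 0.24 (adjusted p = 0.865).

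Of the 3 Timps tested in the spleen, Timp1, a broad Mmp inhibitor that cells make on induction, was the only one to rise. Its counts were 222, 274, 212 and 230.4 in WT and 457, 518, 511 and 495 in L2-cKO spleens. The groups were tight and did not overlap, a 2.11-fold rise (log2 fold change 1.08 ± 0.13, adjusted p = 0.000953). In the male libraries alone its log2 fold change was 0.96 (adjusted p = 0.0128), under the fold limit.

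Timp2, which also takes part in the activation of pro-Mmp2 on the cell surface, had 6945, 7472, 6265 and 6245 in WT and 7752, 7949, 6181 and 9329 in L2-cKO spleens, which overlap (0.21 ± 0.14, adjusted p = 0.333). Timp3, which stays bound to the matrix and also inhibits Adam17, had 1745, 1176, 1839.7 and 1299 in WT and 1395, 1594, 1465 and 2399 in L2-cKO spleens, which overlap (0.18 ± 0.21, adjusted p = 0.609). Timp4 had 9 counts in WT and 21 in L2-cKO spleens over all libraries and was not tested.

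**Figure D3:**
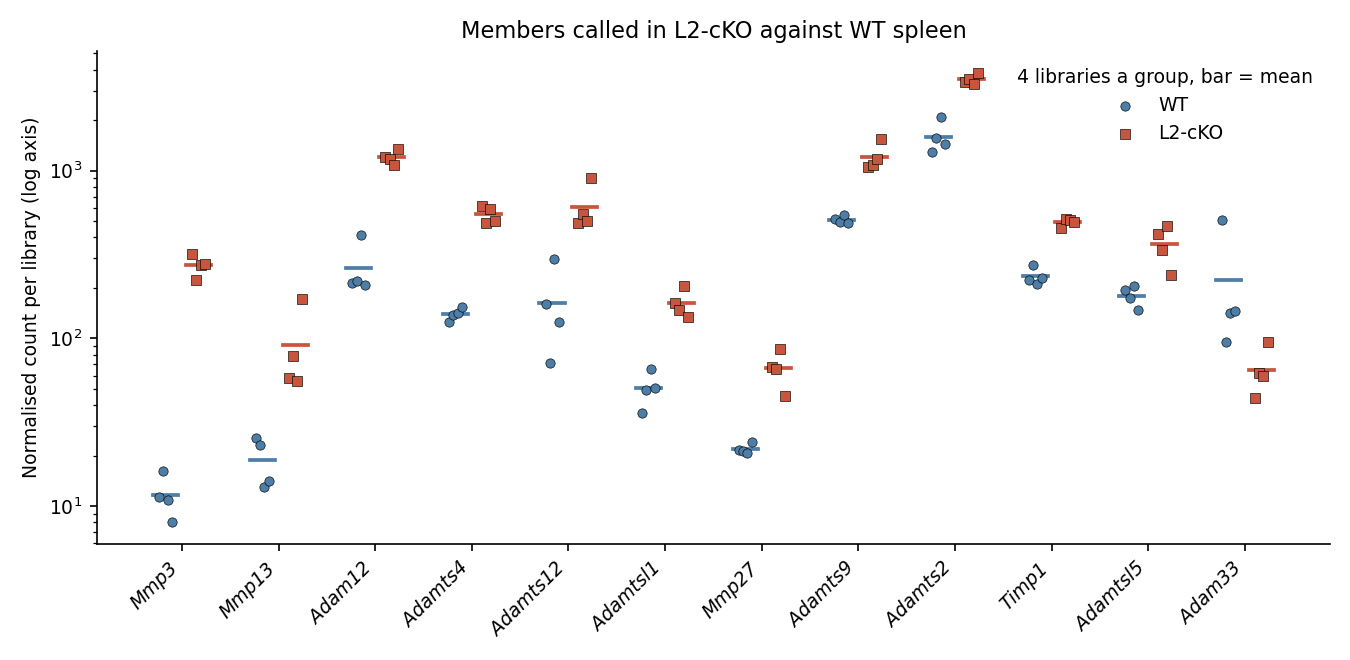
Normalised read counts of the 12 members called in spleen, on a log axis, for 4 WT (circles) and 4 L2-cKO libraries (squares), with bars at the group means. The libraries of the 11 members on the left do not overlap between the groups. In Adam33, on the right, WT spleen 1 stands at 509, above the other libraries.

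Stromal markers were also higher in sum in L2-cKO spleen. The summed normalised count of 7 fibroblast and reticular stroma markers was 29729 to 35813 in WT and 40859 to 54514 in L2-cKO spleens, with no overlap and no marker at 0. Of the 7, Pdgfra, Pdgfrb and Lum were called higher, with log2 fold changes of 1.59, 1.15 and 1.90. Col1a1 (0.34), Col1a2 (0.26), Ccl19 (0.50) and Dcn (-0.09) were not called. Most of the WT sum came from Col1a1 and Col1a2, with WT means of 11246 and 17116, and both overlapped between the groups. In whole-organ RNA, more cells of a type and more RNA per cell cannot be told apart, and neither can fewer cells and less RNA per cell.

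Other cell type markers moved as well. The 5 megakaryocyte and platelet markers all fell, with sums of 20607 to 42184 in WT and 1107 to 1359 in L2-cKO spleens. The 5 neutrophil markers also all fell, with sums of 83522 to 149905 in WT and 6309 to 34308 in L2-cKO spleens. The 4 acinar markers that were tested were called lower too, but their groups overlapped. The acinar sum of WT spleen 3, 41.7, lay within the L2-cKO range of 24.4 to 76.0. Sums of macrophage markers were 16959 to 28122 in WT and 28303 to 55606 in L2-cKO spleens, and those of endothelial markers 17347 to 22169 and 22319 to 34968.

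No single gene of the macrophage, endothelial, smooth muscle, B cell, T cell, erythroid or adipocyte lists passed both limits in the spleen. The part of these shifts in the members' changes was not tested. The 11 members that rose were also called without L2-cKO spleen 4, which had the highest stromal and macrophage sums, and without WT spleen 1, which had the highest acinar sum. Leaving out 1 library does not remove the shifts. The stromal sums of L2-cKO spleens 1 to 3, 40859 to 42022, still lay above every WT sum, and WT spleens 2 and 4 kept acinar sums of 4687 and 16236.

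A list of 52 genes that act around these proteases was followed in the same fit. Of the 45 tested in the spleen, 4 rose and 1 fell, 8.89% and 2.22% beside 2.9% and 3.11% of all genes tested. A2m, whose product traps proteases in plasma and tissue, had 7.54, 5.05, 7.95 and 4.04 in WT and 273, 136, 606 and 252 in L2-cKO spleens (log2 fold change 5.65 ± 0.52, adjusted p = 0.000203). It had nearly no reads in WT, 25 counts in all against 1239 in L2-cKO spleen, and was high in every L2-cKO spleen. A2m reached the minimum of the spleen filter in L2-cKO libraries only, so the filter itself favoured a difference in that gene. The counts of genes that rose in this list include A2m. Fn1, which encodes the Mmp substrate fibronectin, went from 13412 ± 2054 (SD, n = 4) to 28169 ± 2181 (1.07 ± 0.13, adjusted p = 0.00104).

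Pcolce2, an enhancer of procollagen C-proteinase, went from 162 ± 109 to 532 ± 101 (log2 fold change 1.71, adjusted p = 0.0166), and Plat, the tissue plasminogen activator, from 75.3 ± 24.9 to 154 ± 46.0 (1.03, adjusted p = 0.0434). Both were higher in every L2-cKO spleen than in any WT spleen. Vwf, the substrate of Adamts13 and a product of endothelium and megakaryocytes, fell from 2987 ± 151 to 1461 ± 435 (-1.03, adjusted p = 0.00635). Adamts13 itself had a log2 fold change of 0.04.

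By role, 1 of 7 inhibitors and clearance genes, 1 of 18 activators, 1 of 3 astacin proteases with their enhancers and 1 of 17 substrates rose, and the 1 that fell was a substrate. With no limit on the fold, 10 of the 45 rose and 1 fell, beside 6.89% and 6.51% of all genes. Bmp1 (0.72) and Pcolce (0.44) were among those that rose. None of the 44 tested in the ovary was called, beside 0.957% of all genes in either direction.

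L2-cKO ovary 2 stood apart from the other ovaries. Its summed count of granulosa markers was 12653, beside 26018 to 29454 in the other 5, and that of oviduct markers 9206, beside 3964 to 4884. In the ovary, 1 of the 54 members tested rose and none fell by the same limits (limma on log2 of the normalised count plus 1), beside 0.73% and 0.227% of all 18504 genes. At an unadjusted p below 0.05 there were 12 members (22.2%), beside 16.8% of all genes, and edgeR and DESeq2 on the recovered reads also called 1 higher and 0 lower. The median log2 fold change was 0.10 over the members and -0.00 over all genes. With no limit on the fold change the 1 member was again the only call, beside 1.23% of all genes higher. The groups did not overlap for 12 members (22.2%), beside 25.2% of all genes. Every L2-cKO ovary was higher in 9 of them and lower in 3, beside 13.2% and 12.0% of all genes. Of the 54, 51 had a value of at least 10 in all 6 libraries, and Adam32, Adamts18 and Timp4 passed without that.

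The member that rose was Adamts18, an orphan protease needed for branching and eye development. Its normalised counts were 11.0, 8.36 and 11.0 in WT ovaries 1 to 3 and 63.5, 59.6 and 47.8 in L2-cKO ovaries 1 to 3. The groups did not overlap, and the log2 fold change was 2.38 ± 0.28 on the log2(value + 1) scale (adjusted p = 0.0112), 5.22-fold. The adjusted p was 0.0529, 0.0685 and 0.0607 without WT ovary 1, 2 or 3, so the call was lost each time, while the log2 fold change stayed between 2.26 and 2.44. Without L2-cKO ovary 2 the call was kept (2.35, adjusted p = 0.0193). Sums of macrophage markers, 1160 to 1265 in WT and 1546 to 2288 in L2-cKO ovaries, and of endothelial markers, 11002 to 11901 and 13264 to 16275, also did not overlap. Cd4 was the only gene of the T cell list in the ovary table, which lacks Cd3e, Cd3d and Cd8a. Cd4 was called higher (46.8 to 60.8 in WT and 189.6 to 315 in L2-cKO ovaries, log2 fold change 2.12). Acinar sums were 1279 to 1567 in WT and 415 to 599 in L2-cKO ovaries. The part of these shifts in the result was not tested. In the spleen Adamts18 had 4 counts in WT and 7 in L2-cKO libraries and was not tested.

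The Timps did not pass the test in the ovary. Timp3 had 4601, 4951 and 4223 in WT and 6750.0, 7146 and 4985 in L2-cKO ovaries, with no overlap but a log2 fold change of 0.44 ± 0.14 and an adjusted p of 0.178. Timp1 had 567, 552 and 589 in WT and 586, 672 and 629 in L2-cKO ovaries (0.14 ± 0.10, adjusted p = 0.507). Timp2 had 10196, 8671 and 9646 in WT and 11280.4, 10350.3 and 9824 in L2-cKO ovaries (0.14 ± 0.09, adjusted p = 0.456). Both overlap between the groups. Timp4, the least abundant Timp, had 4.87, 23.4 and 16.5 in WT and 11.6, 19.5 and 13.7 in L2-cKO ovaries (0.20 ± 0.56, adjusted p = 0.887).

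The abundant ovarian proteases also stayed under the limits. Mmp2 had 18816, 17673 and 19819 in WT and 20429.8, 18372 and 21783 in L2-cKO ovaries (log2 fold change 0.10 ± 0.09, adjusted p = 0.596). Mmp14 had 14922, 14079.8 and 15343 in WT and 16412, 17862 and 17096 in L2-cKO ovaries, with no overlap (0.21 ± 0.07, adjusted p = 0.197). Mmp11 had 0.35 ± 0.14 (adjusted p = 0.279), Adamts2 0.15 ± 0.07 (0.353) and Adam10 -0.04 ± 0.10 (0.858). In the ovary the stromal marker sums were 202065 to 227707 in WT and 188268 to 246365 in L2-cKO libraries, and no marker of that list passed both limits.

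**Figure D4:**
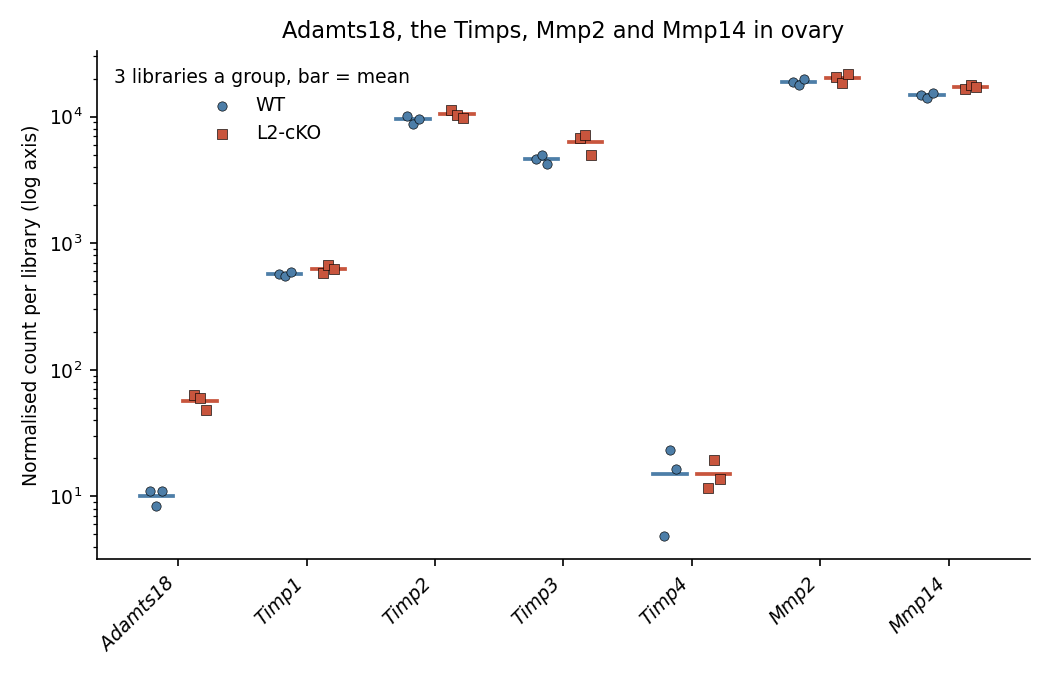
Normalised read counts in ovary, on a log axis, of Adamts18, the 4 Timps, Mmp2 and Mmp14 in 3 WT (circles) and 3 L2-cKO libraries (squares), with bars at the group means. In Adamts18 the WT ovaries lie between 8.36 and 11.0 and the L2-cKO ovaries between 47.8 and 63.5, and in Timp1, Timp2 and Timp4 the groups overlap.

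Whether the change in the spleen differed from that in the ovary was tested as an interaction of genotype and tissue on the reads of all 14 libraries (edgeR). Past both limits, 5 of the 54 members tested had a higher log2 fold change in spleen than in ovary and 1 a lower one. The shares over 18580 genes were 1.39% and 2.0% (3.39% in either direction). With no limit on the size, 8 were above and 1 below, beside 2.57% and 2.65% of all genes. The 5 were Adam12, Adamts2, Adamts4, Adamts12 and Adamtsl1. None of the 5 was called in the ovary.

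Adam12 had 2903, 2978 and 2827 in WT and 3203, 4084 and 3440.1 in L2-cKO ovaries. These groups did not overlap, but its log2 fold change was 0.29 in the ovary (adjusted p = 0.194) and 2.18 in the spleen, a difference of 1.92 ± 0.26 (adjusted p = 0.000501). Adamts4 had 544, 357 and 508 in WT and 644, 472 and 713 in L2-cKO ovaries, which overlap, and the difference was 1.62 ± 0.26 (adjusted p = 0.0023). Adamtsl1 had 1218, 1194 and 1188 in WT and 1575, 1595 and 1238 in L2-cKO ovaries, which do not overlap, and the difference was 1.43 ± 0.26 (adjusted p = 0.00552). These 3 calls were kept without any 1 library and under each other alternative. The fit in female libraries is left aside here, as it rests on 1 L2-cKO spleen.

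Adamts12 had 2262, 1858 and 1863 in WT and 2280.4, 1570.1 and 1823 in L2-cKO ovaries, and the difference was 2.02 ± 0.45 (adjusted p = 0.0176). The adjusted p was 0.0546 without WT ovary 1 and 0.0515 without L2-cKO ovary 2. Adamts2 had 14099, 13563 and 13411 in WT and 16066, 15663 and 14044 in L2-cKO ovaries, and the difference was 1.01 ± 0.18 (adjusted p = 0.00445), at the fold limit. It fell to between 0.91 and 0.98 without WT spleen 1 or 4, L2-cKO spleen 4, WT ovary 1 or L2-cKO ovary 3. In the female libraries alone, the difference was 0.88 in Adamts2, under the fold limit, and 1.30 in Adamts12. These libraries hold 1 L2-cKO spleen, so no call is read from them.

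The member with the lower log2 fold change in the spleen was Adamts19, which is highly expressed in the ovary. It had 6112, 7550.5 and 7564 in WT and 6912, 7329 and 6706 in L2-cKO ovaries, which overlap. In the spleen it had 10.4, 2.02, 16.9 and 18.2 in WT and 1.04, 0, 2.17 and 0 in L2-cKO libraries, 48 against 3 counts in all. The lowest WT value lay below the highest L2-cKO value, the gene did not pass the spleen filter, and the difference of -3.74 ± 0.77 (adjusted p = 0.0115) rests on these few counts. Adamts9 (0.98 ± 0.19, adjusted p = 0.00917), Timp1 (0.96 ± 0.19, adjusted p = 0.00835) and Adam9 (0.68 ± 0.19, adjusted p = 0.048) passed the adjusted p but not the fold limit. For Adamtsl5, which was also called in the spleen, the difference was 0.46 ± 0.31 (adjusted p = 0.448). Mmp3, Mmp13 and Mmp27 were not in the ovary table and were not tested here.

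**Figure D5:**
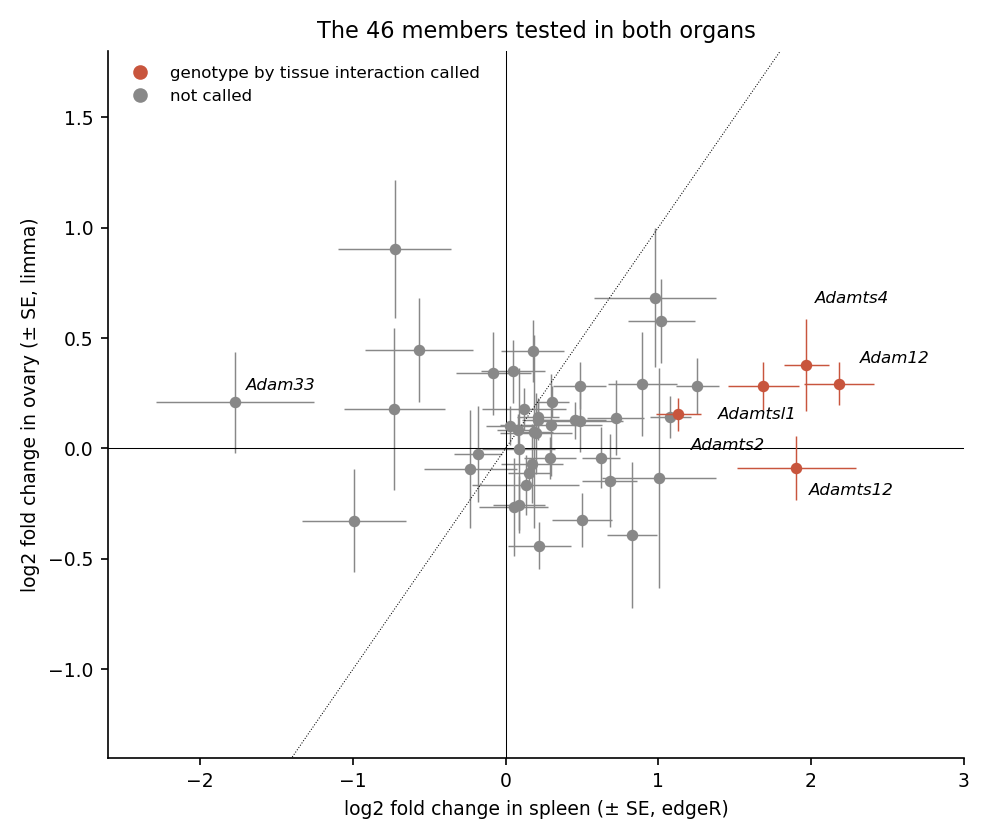
Log2 fold change, L2-cKO against WT, in ovary (vertical, limma) against spleen (horizontal, edgeR) for the 46 members tested in both organs, with SEs. The dotted line marks equal change. The 5 members in red have a called interaction and lie at 1.13 to 2.18 in the spleen and at -0.09 to 0.38 in the ovary.

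The 3′UTRs of the members were searched for the 7-mer that ZFP36L2 bound in the study's binding assays, UAUUUAU in RNA and TATTTAT in the genome. The search covered the sense strand of the longest annotated 3′UTR in GENCODE M21. Of the 58 members, all of which have a 3′UTR, 20 (34.5%) held it at least once. Among the 50 tested in the spleen it was 19 (38.0%), beside 29.7% of the 14192 genes tested there with a 3′UTR. The members' 3′UTRs were also longer, with a median of 1745.5 bases beside 1161 bases. Of the 11 members that rose, 5 (45.5%) held the 7-mer, and of the 38 tested and not called 14 (36.8%) did.

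The 5 were Adamtsl1 with 5 matches, Mmp13 with 4, Adamts4 with 3, Adamts9 with 2 and Adamts2 with 1, where matches may overlap. The first match of each is shown with its surroundings, to give the letters around it in the members that rose, with the 7-mer in capitals.
Adamtsl1: tcttcctttTATTTATttatttgcc
Mmp13: aaaagttgtTATTTATctcccagag
Adamts4: ccctagttgTATTTATttggtattt
Adamts9: aaagtttaaTATTTATgtttgaaat
Adamts2: atagtgtttTATTTATagatcaatt
In GRCm38 they lie at chr4:86426025-86426049, chr9:7282127-7282151, chr1:171259473-171259497, chr6:92773889-92773913 and chr11:50804594-50804618, on the plus strand except for Adamts9, which is on the minus strand. The 7-mers begin at bases 86, 18, 304, 678 and 574 of their 3′UTRs, which are 2437, 1213, 1459, 1883 and 3544 bases long.

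The other 6 members that rose had none, among them Mmp3, with the largest change and a 3′UTR of 285 bases, Timp1 (103 bases), Adamtsl5 (314 bases) and Mmp27 (492 bases). Adam12 and Adamts12 had none in 4743 and 3554 bases. Adamts18, which rose in the ovary, had none in 1843 bases. Whether these sites are bound was not measured in these libraries.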

How the data were processed

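RNA was measured in 4 WT and 4 L2-cKO spleens and 3 WT and 3 L2-cKO ovaries, 1 animal per library. For the spleen the authors trimmed reads with Trimmomatic 0.36, mapped them to GRCm38 with STAR 2.5.2b and used featureCounts (Subread 1.5.2) for strand-specific counting of unique exonic reads. The spleen table holds the counts deposited by the authors. The ovary table holds a signal deposited by the authors, gene counts divided by 1 size factor per library, and 100.0% of its values came out as whole reads within 0.001. Exons of 16 members overlap a gene of the opposite strand, and counting by strand is stated for the spleen only. The labels call the spleen source an organoid, and the libraries were treated as spleens. The authors' own comparison columns (log2 fold changes, p-values and adjusted p-values) were not used. No column of per-sample values was left unmapped.

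Spleen counts were tested with the edgeR 4.0.16 quasi-likelihood test (TMM) for genes that reached 10 counts in 4 or more libraries. For display, each spleen count was divided by its library's TMM-adjusted total and multiplied by the mean of those totals. Ovary values were tested with limma 3.58.1 on log2(value + 1) in genes with at least 10 in at least 3 libraries, and this scale understates the change of low genes. The interaction used edgeR on 14 libraries in genes with at least 10 reads in at least 3. Calls required a Benjamini-Hochberg adjusted p below 0.05 over all genes and an absolute log2 fold change above 1. Alternatives were DESeq2 1.42.0, other scalings, filters and pseudocounts, sex, a replicate block and each library left out. R 4.3.3 and Python 3.11.15 were used, and the tests were first tried on simulated data.

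Members and lists of genes were chosen with earlier results of these data known. Genes were named if called in any comparison, if their adjusted p passed without the fold limit, if they were Timps, or if they had the highest level per length of their role, and Adam5, Adam11, Adam17, Mmp12, Mmp7, Adamts10 and Adamts13 were added after their values were seen. The promoter motif was also chosen then. Proteolytic and non-proteolytic Adams were split by known function.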

Additional observations from a re-analysis of the deposited data

Results flagged for a closer look

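Of 62 groups of 4 spleens tested over 31 named members, 6 held 1 library far from the other 3 by Dixon's test, which chance flags in about 1 in 20 groups. WT spleen 1 was the outlying library in 4 of them, with a normalised count of 509 in Adam33 (others 95.0 to 147), 553 in Adam23 (others 186 to 236), 825 in Adamtsl2 (others 262 to 304) and 618 in Mmp15 (others 839.8 to 884). WT spleen 3 had 413 in Adam12 (others 209 to 219), and L2-cKO spleen 4 had 902 in Adamts12 (others 487 to 549).

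The genotype difference was not the same in spleen and ovary for 6 members by the interaction test of edgeR. The spleen minus ovary difference in log2 fold change was 1.92 in Adam12, 2.02 in Adamts12, 1.62 in Adamts4, 1.43 in Adamtsl1, 1.01 in Adamts2 and -3.74 in Adamts19. The value of Adamts19 rests on few spleen counts, and the calls of Adamts2 and Adamts12 were lost without some single libraries.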

How the results depend on the processing

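The count of 11 members higher in L2-cKO spleen lay between 10 and 12 under the other tests, scalings, filters and sample choices and was 16 with the adjusted p as the only limit. The count of 1 lower was 2 with every gene that had a count, and 0 with 10 counts in all 8 libraries, with sex as a covariate, in male libraries only and with the replicate block. Without single libraries it ran from 0 to 2. In the ovary the count of 1 higher was 0 with a value of 10 in all 6 libraries, since Adamts18 was then not tested, and 0 to 1 without single libraries. The count of 0 lower was 0 throughout. The 5 members with the higher log2 fold change in spleen became 3 to 6 without single libraries (3 without WT ovary 1). The 1 with the lower log2 fold change in spleen became 1 to 2 without single libraries (2 without L2-cKO spleen 4). The female libraries hold 1 L2-cKO spleen, so no count is given for them. The cause was not tested.

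Same-numbered spleens correlated by -0.14, 0.09, 0.18 and -0.29 in their deviations and ovaries by 0.38, 0.21 and 0.07, so the replicate numbers were not taken to pair samples. With the replicate block 10 members were higher and 0 lower in spleen, 1 higher in ovary, and 6 above and 1 below in the interaction. Adamtsl5 then had a log2 fold change of 0.99.

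Over all genes, 490 higher and 526 lower in spleen became 1166 and 1101 with the adjusted p as the only limit. The 135 higher and 42 lower in ovary became 227 and 65 with that limit, 286 and 121 with DESeq2 on recovered reads, and 28 and 4 without WT ovary 2, and 81 were lower with the replicate block. The interaction's 258 above and 372 below became 159 and 234 without WT ovary 1, with 240 below without WT ovary 2 and 577 below without L2-cKO spleen 4. Of the alternative values of single named members, 389 of 419 in spleen, 339 of 362 in ovary and 472 of 504 for the interaction kept their direction and side of the limits. Another 11, 20 and 11 changed sign, in 5, 8 and 5 members, and in none of these was either value called, with adjusted p at or above 0.177.

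Without single libraries the log2 fold change in spleen ran from -0.39 to 0.067 in Adamtsl4, -0.10 to 0.21 in Mmp11, -0.060 to 0.18 in Mmp2, -0.033 to 0.18 in Mmp23 and -0.025 to 0.28 in Timp3. In ovary it ran from -0.13 to 0.017 in Adam10, -0.26 to 0.18 in Adam22, -0.17 to 0.086 in Adam9, -0.23 to 0.038 in Adamts12, -0.12 to 0.039 in Adamts19, -0.55 to 0.52 in Adamtsl2, -0.053 to 0.24 in Mmp15 and -0.41 to 0.62 in Timp4. The interaction ran from -0.36 to 0.098 in Adam22, -0.16 to 0.11 in Mmp2, -0.12 to 0.10 in Mmp23 and -0.021 to 0.19 in Timp2. With sex as a covariate the spleen values were -0.076 in Mmp11 and -0.057 in Mmp2, and in male libraries only -0.093 in Mmp2. On recovered reads edgeR and DESeq2 gave 0.016 and 0.022 in Adam22, 0.10 and 0.10 in Adamtsl2 and -0.053 and -0.024 in Timp4 in the ovary. In female libraries only the interaction was 0.50 in Adamts18, -0.22 in Mmp23 and -0.17 in Timp2, and without the animal that gave both organs it was 0.022 in Mmp2.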

Other observations

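Mmp12 and Adam7, both chosen after their values were seen, were low in the ovary and did not pass the test there. Mmp12, the macrophage elastase, had normalised counts of 12.2, 10.03 and 10.1 in WT and 18.8, 26.7 and 18.2 in L2-cKO ovaries. These did not overlap (log2 fold change 0.90 ± 0.31, adjusted p = 0.212 by limma), and the value in the spleen was -0.73. The spleen minus ovary difference was -1.68 ± 0.52 with an adjusted p of 0.0779 by edgeR. Adam7, a non-proteolytic Adam known from the epididymis, had 57.2, 57.7 and 62.4 in WT and 26.8, 38.0 and 22.8 in L2-cKO ovaries, with no overlap (-1.02 ± 0.26, adjusted p = 0.119 by limma).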
